A study of Mus musculus with 8 samples.

Results

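The nuclear genes of the mitochondrial respiratory chain and ATP synthase were followed across 1 mouse embryonic stem (ES) cell line and 3 lines of mouse induced pluripotent stem (iPS) cells. Members were the genes whose platform symbol begins with Nduf, Uqcr, Atp5, Cox4, Cox5, Cox6, Cox7 or Cox8, together with Sdha, Sdhb, Sdhc, Sdhd and Cyc1, leaving out Ndufa4l2 and Cox4i2. This gave 89 genes of the 18194 on the platform that had a probe set with a single symbol, and all 89 were among the 14009 genes that entered the tests. By complex, 42 belong to complex I (8 of them Ndufaf assembly factors), 4 to complex II, 9 to complex III, 17 to complex IV and 17 to complex V. Ndufa4, once counted in complex I, and Cox7a2l, a supercomplex assembly factor, were placed with complex IV.

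The study set ES cells beside iPS cells made without integrated reprogramming vectors, with cells of both kinds at passage 7 to 10. The 4 groups were the line labelled ES control and iPS lines 1, 2 and 3, with 2 arrays each. All were male and of C57BL/6 strain, and all were grown in N2B27 medium with mouse LIF, a cytokine that holds mouse pluripotent cells in self-renewal. No gene was deleted and no compound was added in any group, as far as the labels say. Each group is 1 line, so a difference between ES cells and an iPS line is also a difference between 2 lines. Although the arrays are titled biological replicates, whether each had its own culture is not stated in any label. The tests took their error from how far arrays of the same line differed, pooled over the 4 groups and moderated across genes. Such differences between arrays of a line may be technical.

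Oxidative phosphorylation passes electrons from NADH through complex I, and from succinate through complex II, to ubiquinone. Complex III hands them to cytochrome c and complex IV to oxygen, and the protons pumped on the way drive complex V, the ATP synthase. Complexes I, III, IV and V combine nuclear subunits with a few encoded in mitochondrial DNA, while complex II is wholly nuclear. Mouse ES cells in LIF respire and also run glycolysis, and the balance between both is part of what separates pluripotent states.

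Signals are linear MAS5 intensities, and the authors' scaling gave all 8 arrays the same trimmed mean signal of 500. All 8 markers of pluripotent cells lay above the low-signal floor of 37.1 in every line, with summed signals of 95700 to 109000 per array and 104000 to 107000 in line 2. Of these 8, Utf1 (-0.86) and Pou5f1 (-0.23) were lower in line 2 than in ES cells and 0 higher, and 0 passed in lines 1 and 3 in limma, where 3 and 1 were lower at an unadjusted p under 0.05. Of 7 fibroblast markers, 1 or 2 lay above the floor in both arrays of a line (summed signals 162 to 251), with Col1a1, Col3a1, Postn, Lum and Dcn at or under it in all 4 lines. Of 7 primitive endoderm markers, 4 or 5 lay above it (351 to 426), and Foxa2 was at or under it in all 4 lines. The 3'/5' ratio of beta-actin, a measure of RNA integrity, was 1.74 and 1.79 in the arrays of line 2 and between 1.49 and 1.62 in the other 6. For Gapdh the same ratio was 0.915 and 0.946 in line 2, a range that overlapped the 0.856 to 0.935 of the other arrays. Line 2 is the line in which most of the called members changed, and the part of RNA integrity or of these markers in those changes was not tested.

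The respiratory chain as a whole differed little between the lines. Differences are given as log2(signal + 12), a scale on which the change of a dim gene is understated. Against ES cells, the median absolute log2 difference of the 89 members was 0.06 in line 1, 0.12 in line 2 and 0.06 in line 3, where the median over all genes tested was 0.16, 0.28 and 0.17. In line 2, 5 members (5.62%) differed from ES cells by over 0.5 in either direction, against 27.3% of all genes. Such small differences sit beside high signals: the members' mean signal over the 8 arrays had a median of 7460, against 320 over all genes tested. The members were not set against genes of similar signal, so the part of signal level in these smaller differences was not tested. Only Cox7b2, Cox8b and Ndufb4 were at or under the floor in some arrays. In bulk RNA, fewer cells that express a gene and less RNA per cell cannot be told apart.

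**Figure D1:**
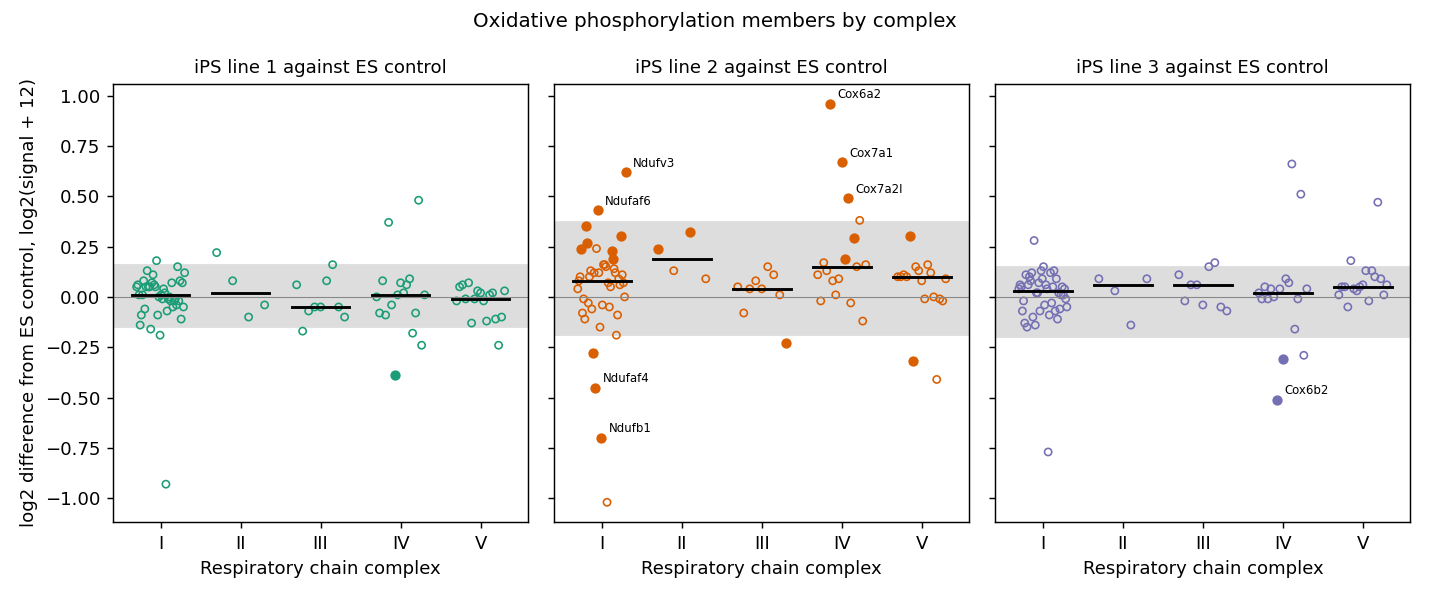
Each circle is 1 of the 89 members, placed by complex (x axis) and by its log2 difference from ES control on the log2(signal + 12) scale (y axis), with 1 panel for each iPS line. Filled circles passed limma's test at an adjusted p under 0.05, black bars mark the median of a complex and the grey band runs from the lower to the upper quartile of all 14009 genes tested. Most circles lie inside the band, and the filled ones are almost all in the panel of line 2.

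A member counted as changed when limma's moderated test, with Benjamini-Hochberg adjustment across the 14009 genes tested, gave an adjusted p under 0.05. The 3 comparisons of an iPS line with ES cells share the 2 ES arrays, as does the mean of the 3 lines. In line 1 no member was higher, where 1.21% of all genes were, and 1 was lower, where 1.12% were. At an unadjusted p under 0.05 in limma, 3 members were higher and 3 lower. In line 3 no member was higher, where 1.59% of all genes were (7 at an unadjusted p under 0.05 in limma), and 2 were lower, where 2.57% were. The single call of line 1 was lost on leaving out any 1 of the ES, line 1 or line 3 arrays. Line 3 had 0 calls without either ES array or without line 3 replicate 2, and 1 call without line 3 replicate 1 or either line 1 array.

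In line 2, 16 members were higher than in ES cells, where 16.1% of all genes were higher, and 5 were lower, where 10.6% were lower. As shares of the 89 members these are 18% and 5.62%, so that, in the signals as deposited, the share that rose lay near that of all genes and the share that fell below it. The count of 21 became 11 without ES control replicate 1 and 13 without iPS line 2 replicate 1. In the mean of the 3 lines, 2 members were higher (4.27% of all genes) and 1 lower (3.03% of all genes). Leaving out either ES array gave 0 calls in that mean, leaving out line 2 replicate 2 gave 5, and leaving out all of line 2 gave 1.

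How many of the small line 2 differences counted as rises depended on the scaling of the arrays. The split of 16 higher and 5 lower became 29 and 4 after quantile normalization, and 4 and 6 when each array was centred on its own median. After quantile normalization 32.6% of the members were higher and 4.49% lower, where 13.7% and 12.2% of all genes were. With centred arrays 4.49% of the members were higher and 6.74% lower, where 11.1% and 13.1% of all genes were. The share of members that rose thus lay above that of all genes under the first of these scalings and below it under the other. No member of the 21 changed sign under either scaling. After quantile normalization 19 of the 21 kept their call, with Cox6a2 and Uqcrq lost, and after centring 9 of the 21 kept it. Of the 16 members that were higher, those that remained so after centring were Cox7a1, Ndufv3, Cox7a2l and Ndufaf6, while all 5 that were lower remained lower. The median of the 89 members in line 2 was 0.10, against 0.07 over all genes, and became 0.01 against -0.02 with centred arrays.

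**Figure D2:**
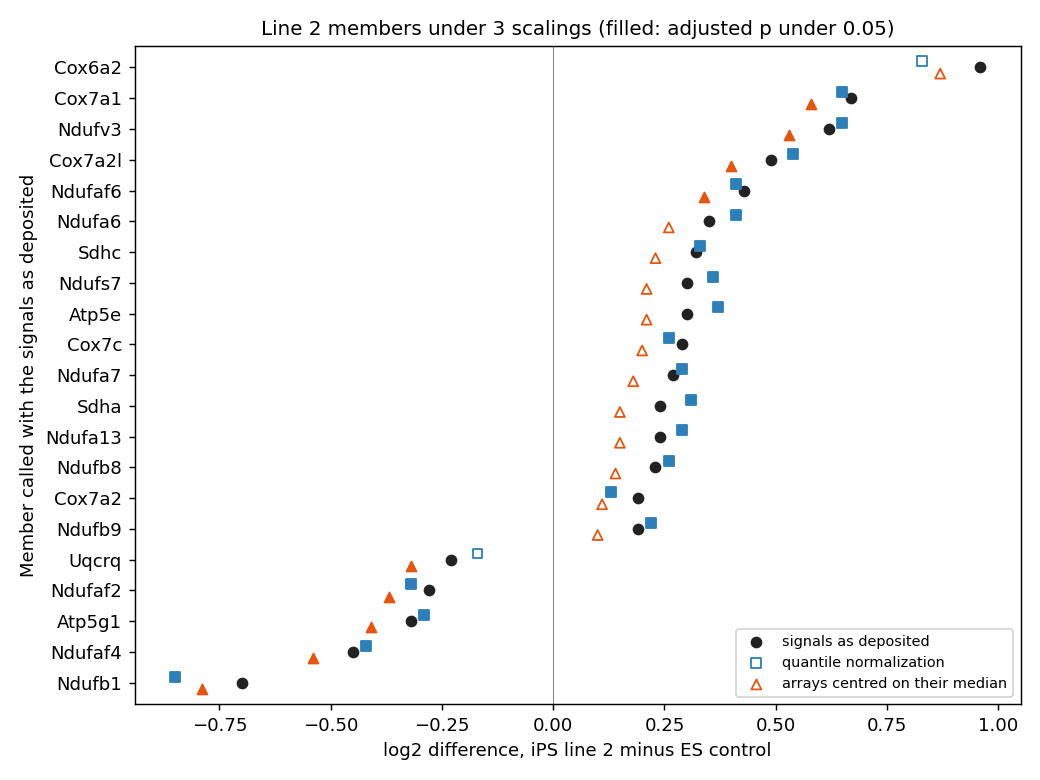
The 21 members called in line 2 against ES control (y axis) with their log2 difference (x axis) under 3 scalings: signals as deposited (black circles), quantile normalization (blue squares) and arrays centred on their median (orange triangles). Filled marks passed at an adjusted p under 0.05 in limma; no member crosses 0, and 12 members turn open under centring.

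The 5 members that kept their line 2 call against ES cells under every scaling, pseudocount, filter, rule for joining probe sets and variance model tried, with the replicate block, in a fit of only these groups and on leaving out each array in turn were Ndufv3, Cox7a2l, Cox7a1, Ndufaf4 and Ndufb1. The first 3 rose and the last 2 fell.

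In complex I, the NADH dehydrogenase, 11 of the 42 genes (26.2%) were called in line 2, where 26.7% of all genes were called in either direction. Ndufv3, an accessory subunit of the arm that binds NADH, had signals of 6010 and 6344 in the ES arrays, 6763 and 6652 in line 1, 9666 and 9323 in line 2, and 6250 and 5699 in line 3. Both line 2 arrays lay above all 6 others, while the arrays of line 3 and ES cells overlapped. Ndufv3 was 1.54-fold higher in line 2 than in ES cells (log2 0.62 ± 0.06 SE, n = 2 and 2 arrays, limma adjusted p = 1.68e-05) and 1.59-fold higher than in line 3 (0.67 ± 0.06, limma adjusted p = 7.32e-06). It was 1 of the 2 members higher in the mean of the 3 lines (0.23 ± 0.05, limma adjusted p = 0.0156), where line 1 had a difference of 0.12 and line 3 of -0.05.

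Of the complex I genes that fell in line 2, the subunit gene Ndufb1 had signals of 465 and 526 in ES cells, 412 and 453 in line 1, 326 and 274 in line 2, and 528 and 522 in line 3. The 2 arrays of line 2 were the lowest of the 8. Ndufb1 was 1.63-fold lower in line 2 than in ES cells (-0.70 ± 0.13 SE, limma adjusted p = 0.0013). Its difference between line 2 and line 3 was -0.79 ± 0.13 (limma adjusted p = 0.000453).

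The Ndufaf genes encode assembly factors, which build complex I and are not part of the finished enzyme. Of the 8 measured, 1 rose in line 2 and 2 fell, where 16.1% and 10.6% of all genes did. Ndufaf4, which acts early in assembly, had signals of 2987 and 3430 in ES cells, 3483 and 3213 in line 1, 2259 and 2413 in line 2, and 3304 and 3184 in line 3. Line 2 lay below the other lines, whose arrays overlapped. Ndufaf4 was 1.37-fold lower in line 2 than in ES cells (-0.45 ± 0.08 SE, limma adjusted p = 0.00105), and its other passing probe set gave -0.37 and was called as well. Ndufaf2, a chaperone for a late step of assembly, had signals of 1401 and 1472 in ES cells, 1516 and 1500 in line 1, 1220 and 1138 in line 2, and 1673 and 1817 in line 3. Its arrays were lowest in line 2 and highest in line 3, with ES cells and line 1 between them. The difference between line 2 and ES cells was -0.28 ± 0.08 (limma adjusted p = 0.0184), a call lost without either ES array or without line 2 replicate 2 (-0.32 to -0.23). The difference between line 2 and line 3 was -0.56 ± 0.08 (1.47-fold lower in line 2, limma adjusted p = 0.000174). Ndufaf6 was higher in line 2 (0.43 ± 0.10, limma adjusted p = 0.00859), with signals of 1263 and 1188 in ES cells, 1542 and 1246 in line 1, 1696 and 1614 in line 2, and 1202 and 1373 in line 3. The line 2 arrays were the highest, line 1 replicate 1 came close to them, and the call was lost without ES replicate 2 or line 2 replicate 1.

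Among the other complex I subunits, 6 more rose in line 2 by small amounts. Ndufa6 had signals of 4519 and 4710 in ES cells, 4272 and 4555 in line 1, 6193 and 5595 in line 2, and 4297 and 4027 in line 3. Line 2 was above all other arrays, and the difference from ES cells was 0.35 ± 0.07 SE (limma adjusted p = 0.00241). Ndufs7, a core subunit that carries an iron-sulfur cluster, had signals of 4657 and 4752 in ES cells, 5095 and 4860 in line 1, 6016 and 5574 in line 2, and 5082 and 4638 in line 3, with line 2 the highest (0.30 ± 0.07, limma adjusted p = 0.00512). The remaining 4 were Ndufa7 (0.27), Ndufa13 (0.24), Ndufb8 (0.23) and Ndufb9 (0.19). Each of these 4 lost its call without ES control replicate 1, and Ndufb8 changed sign to -0.15 when its probe sets were averaged, since a dim second probe set gave -0.53. Of the other core subunits, Ndufs1 (-0.19), Ndufs3 (-0.09), Ndufs8 (0.11), Ndufv1 (0.07) and Ndufv2 (0.00) did not pass in line 2 against ES cells by their brightest probe set. With each probe set tested, a dim one of Ndufs8 (mean signal 186) gave -0.83 and passed (limma adjusted p = 0.0225). Its remaining probe sets gave -0.02 to 0.13 and did not pass. Mean signals in complex I ran up to 14400 for Ndufc1, and down to 35.4 for Ndufb4.

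Ndufb4 rests on a dim probe set. Its bright probe sets also carry the symbols of close copies and were left out under the rule on single symbols. The one that remained read 58.9 and 62 in ES cells, 22.2 and 30.6 in line 1, 29.5 and 18.9 in line 2, and 30.8 and 30 in line 3. All 6 iPS arrays were at or under the floor, and the mean difference of -0.91 ± 0.36 did not pass (limma adjusted p = 0.164). For the same reason Ndufa11 and Ndufs6 have no value here, and in all 10 probe sets with several symbols were left out.

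**Figure D3:**
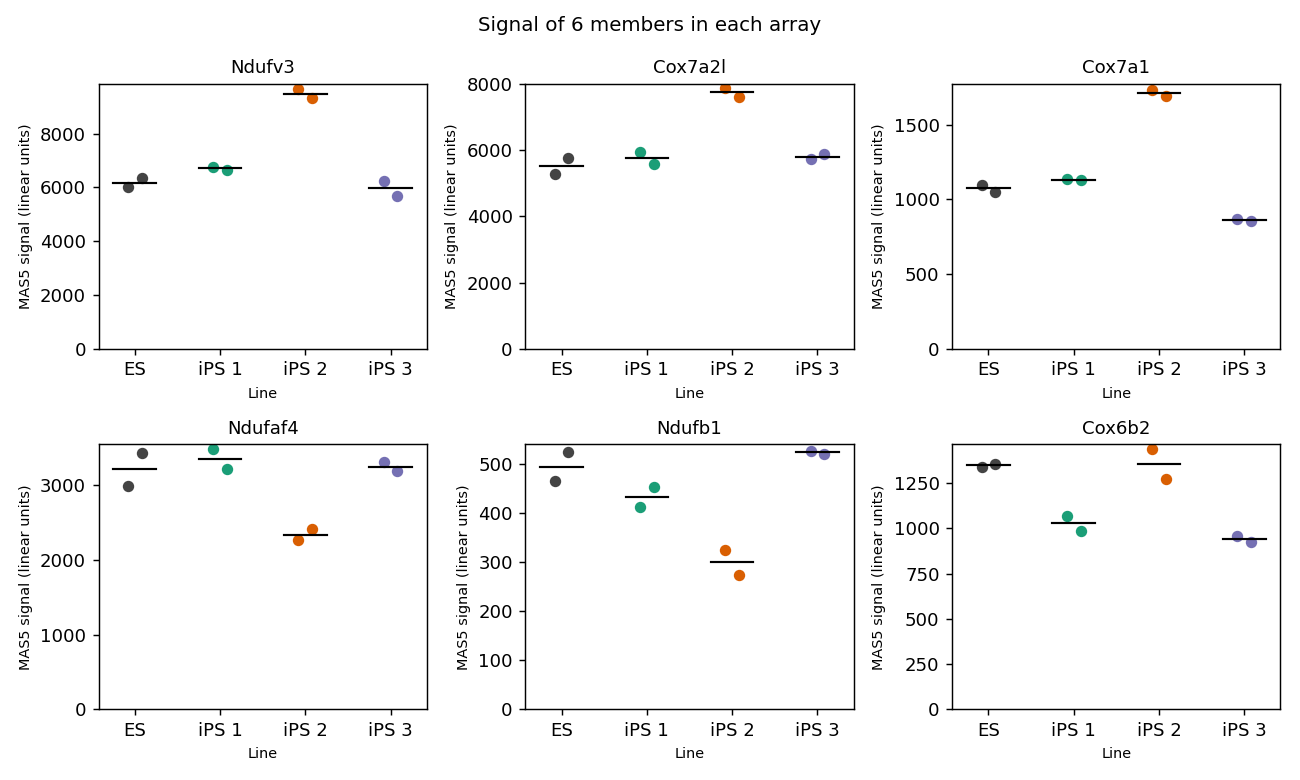
Linear MAS5 signals (y axis, from 0) of 6 members in each of the 8 arrays (points), with the mean of the 2 arrays of a line as a bar. Ndufv3, Cox7a2l and Cox7a1 are highest in both arrays of line 2, Ndufaf4 and Ndufb1 are lowest there, and Cox6b2 is lower in lines 1 and 3 than in ES cells and line 2.

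Complex II, the succinate dehydrogenase, has 4 subunits, and 2 of them rose in line 2, where 16.1% of all genes did. Sdhc, a membrane anchor, had signals of 1627 and 1733 in ES cells, 1578 and 1556 in line 1, 2096 and 2099 in line 2, and 1666 and 1396 in line 3. Line 2 stood above the other arrays, with a difference from ES cells of 0.32 ± 0.09 SE (limma adjusted p = 0.0164) and from line 3 of 0.46 ± 0.09 (limma adjusted p = 0.00155). Sdha, the flavoprotein that oxidises succinate, had signals of 6002 and 5555 in ES cells, 6915 and 6549 in line 1, 7025 and 6643 in line 2, and 6014 and 6254 in line 3. Both ES arrays were below every iPS array, by little in line 3. The difference of Sdha was 0.24 ± 0.06 in line 2 (limma adjusted p = 0.0128), and 0.22 ± 0.06 in line 1, which did not pass (limma adjusted p = 0.109). Both line 2 calls were lost without line 2 replicate 1. That of Sdhc was also lost without line 2 replicate 2 or ES replicate 1, and that of Sdha without ES replicate 2. A second probe set of Sdha gave 0.42 in line 2 (limma adjusted p = 0.00139 with each probe set tested) but 0.07 in line 1. It put line 2 above line 1 by 0.35, where the brightest probe set gave 0.02. The iron-sulfur subunit Sdhb (0.13) and the anchor Sdhd (0.09) did not pass in line 2.

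In complex III, the cytochrome bc1 complex, 0 of the 9 genes passed limma's test of any difference among the 4 lines, where 30.7% of all genes did. At an unadjusted p under 0.05 in that test there was 1. The catalytic subunits Cyc1, cytochrome c1, and Uqcrfs1, the Rieske iron-sulfur protein, had log2 differences from ES cells of 0.05 and 0.11 in line 2, 0.06 and 0.16 in line 1, and 0.11 and 0.17 in line 3. For Uqcrfs1 the ES arrays read 5549 and 5584, and the 6 iPS arrays lay between 5957 and 6411. These iPS arrays were all above the ES arrays, yet no comparison passed (limma adjusted p = 0.0937 for the mean of the 3 lines). Mean signals ran from 6000 for Uqcrfs1 to 33800 for the accessory subunit Uqcrb. Uqcrb read 32714 and 33843 in ES cells, 32432 and 31862 in line 1, 35768 and 34592 in line 2, and 34636 and 34513 in line 3, and its difference of 0.08 in line 2 did not pass (limma adjusted p = 0.254). Its arrays were lowest in line 1, and those of lines 2 and 3 overlapped. Uqcrq, a small subunit that binds ubiquinone, was the 1 gene of these 9 called in line 2, where 26.7% of all genes were called. Its difference from ES cells was -0.23 ± 0.07 (limma adjusted p = 0.0335). Its signals were 6472 and 7469 in ES cells, 6309 and 6628 in line 1, 5847 and 5984 in line 2, and 6932 and 6352 in line 3. Line 2 was lowest, but 3 other, dim probe sets of Uqcrq gave 0.00 to 0.46, so that the mean of its probe sets was 0.15 and the value without shared-sequence probe sets 0.46. Its call was also lost without ES replicate 2 or either line 2 array.

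Complex IV, cytochrome c oxidase, includes several isoforms known from particular tissues, and some of these differed between lines. Cox7a1, the heart and skeletal muscle isoform of subunit 7a, had signals of 1098 and 1051 in ES cells, 1134 and 1131 in line 1, 1732 and 1696 in line 2, and 866 and 857 in line 3. The 2 arrays of a line agreed closely, line 2 lay above all other arrays and line 3 below them. Cox7a1 was 1.59-fold higher in line 2 than in ES cells (0.67 ± 0.08 SE, limma adjusted p = 5.07e-05) and 1.24-fold lower in line 3 (-0.31 ± 0.08, limma adjusted p = 0.0417). Line 2 exceeded line 3 by 1.98-fold (0.98 ± 0.08, limma adjusted p = 1.86e-06), and line 1 exceeded line 3 by 0.39 ± 0.08 (limma adjusted p = 0.029). The call of line 3 against ES cells was lost on leaving out any ES, line 1 or line 3 array. In the order of levels, ES cells and line 1 were neighbours that did not pass the test (0.07 ± 0.08, limma adjusted p = 0.742).

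Cox6b2, the testis isoform of subunit 6b, had another order. Its signals were 1337 and 1357 in ES cells, 1070 and 984 in line 1, 1437 and 1273 in line 2, and 958 and 923 in line 3. The arrays of ES cells and line 2 overlapped, and those of lines 1 and 3 lay below both. Cox6b2 was 1.31-fold lower than in ES cells in line 1 (-0.39 ± 0.09 SE, limma adjusted p = 0.0379) and 1.43-fold lower in line 3 (-0.51 ± 0.09, limma adjusted p = 0.00608). It was the single member lower in the mean of the 3 lines (-0.30 ± 0.07, limma adjusted p = 0.0237), although line 2 itself differed from ES cells by 0.01 ± 0.09. The line 3 call was lost without either ES array or without line 3 replicate 2 (-0.52 to -0.49), and the line 1 call on leaving out any ES, line 1 or line 3 array. The difference between line 2 and line 3, 0.52 ± 0.09 (limma adjusted p = 0.000663), kept its call under each alternative.

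Of the other tissue isoforms, Cox6a2, the muscle isoform of subunit 6a, was dim. It read 59 and 47.2 in ES cells, 85.3 and 60.5 in line 1, 125 and 104 in line 2, and 62.2 and 48.3 in line 3. The line 2 arrays were highest, and the difference from ES cells was 0.96 ± 0.30 SE (limma adjusted p = 0.034), a call lost after either scaling and on leaving out any ES or line 2 array. Cox7b2, a testis isoform, ranged over the 8 arrays from 29.6 to 99.4. Cox8b, another muscle isoform, ranged from 3.14 to 77, and Cox8c, a testis isoform, from 170 to 231. None of these 3 passed any of the 8 tests by the brightest probe set. With each probe set tested, a dimmer one of Cox8c (mean signal 41) gave 2.14 in line 2 against line 1 and passed (limma adjusted p = 0.00828).

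Cox7a2l, classed above as a supercomplex assembly factor, rose in line 2 as RNA. Supercomplexes were not measured. Its signals were 5276 and 5764 in ES cells, 5944 and 5593 in line 1, 7886 and 7613 in line 2, and 5725 and 5892 in line 3. The arrays of ES cells, line 1 and line 3 overlapped, and both line 2 arrays lay above them. Cox7a2l was 1.4-fold higher in line 2 than in ES cells (0.49 ± 0.06 SE, limma adjusted p = 0.000121), and its 2 other probe sets gave 0.50 and 0.53 and were called as well. In the mean of the 3 lines it was higher by 0.21 ± 0.05 (limma adjusted p = 0.0275), with 0.06 in line 1 and 0.07 in line 3.

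The 9 subunits of complex IV that are neither of these kinds differed less, with Cox7c and Cox7a2 called in line 2. Cox7c read 1204 and 1257 in ES cells, 1090 and 1081 in line 1, 1516 and 1489 in line 2, and 1176 and 1026 in line 3 (line 2 against ES cells 0.29 ± 0.09 SE, limma adjusted p = 0.0254). Line 2 was again the highest, and the call was lost on leaving out any ES or line 2 array. Cox7a2, the isoform of subunit 7a found in most tissues, was higher by 0.19 ± 0.05 (limma adjusted p = 0.0188), a call lost without ES replicate 1 or line 2 replicate 1. Judged by the brightest probe set, Cox5a (-0.02), Cox4i1 (0.11), Cox5b (0.17), Cox6b1 (0.08), Cox6c (0.09), Cox6a1 (0.13), Cox8a (0.15) and Ndufa4 (0.16) did not pass in line 2 against ES cells. The Cox5a arrays of ES cells (28789 and 31425) and line 2 (28333 and 31089) overlapped. With each probe set tested, other probe sets of Cox5b gave 0.22, 0.20 and, at a mean signal of 83.4, 1.09. These passed (limma adjusted p = 0.0157, 0.0389 and 0.0191), while a further one gave 0.16 and did not.

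In complex V, 1 of the 17 genes rose and 1 fell in line 2, where 16.1% and 10.6% of all genes did. Atp5e, the epsilon subunit of the catalytic head, read 5641 and 6144 in ES cells, 6139 and 6212 in line 1, 7632 and 6894 in line 2, and 6764 and 6607 in line 3. Line 2 was highest and the difference from ES cells was 0.30 ± 0.07 SE (limma adjusted p = 0.0047), a call lost without ES replicate 1. Atp5g1 is 1 of 3 genes that encode the same mature c subunit of the rotor ring. It read 10066 and 10846 in ES cells, 10002 and 9141 in line 1, 8696 and 8062 in line 2, and 10957 and 10508 in line 3. Line 2 was lowest, by -0.32 ± 0.07 against ES cells (limma adjusted p = 0.0032) and by -0.36 ± 0.07 against line 3 (limma adjusted p = 0.00122). The other c subunit genes, Atp5g2 (0.15) and Atp5g3 (0.13), did not pass in line 2 against ES cells by their brightest probe set. Their difference from Atp5g1 was not tested. With each probe set tested, a dim one of Atp5g2 (mean signal 154) gave 0.92 and passed (limma adjusted p = 0.00997).

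Atp5md, a small membrane subunit linked to dimers of the synthase, differed widely between the 2 arrays of ES cells and of line 1. It read 6226 and 4479 in ES cells, 3538 and 6729 in line 1, 4110 and 3844 in line 2, and 7227 and 7389 in line 3. The arrays of lines 2 and 3 did not overlap, whereas those of ES cells and line 1 spanned much of the range between them. Line 2 was 1.84-fold lower than line 3 (-0.88 ± 0.22 SE, limma adjusted p = 0.00793), a call lost without the variance trend (limma adjusted p = 0.112). In the core of the head, the brightest probe sets of Atp5a1 (0.10), Atp5b (0.10), Atp5c1 (0.11) and Atp5d (0.10) did not pass in line 2 against ES cells. Neither did those of the 4 peripheral stalk genes (-0.02 to 0.09). With each probe set tested, a dimmer one of Atp5a1 (mean signal 621) gave 0.55 and passed (limma adjusted p = 0.0163), while another gave 0.15 and did not.

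Set side by side, the complexes shifted by small amounts. The median log2 difference from ES cells in line 2 was 0.08 for complex I, 0.19 for complex II, 0.04 for complex III, 0.15 for complex IV and 0.10 for complex V, against 0.07 over all genes tested. In line 1 the same medians were 0.01, 0.02, -0.05, 0.01 and -0.01, and in line 3 they were 0.03, 0.06, 0.06, 0.02 and 0.05. Both line 2 arrays lay above the other 6 for complexes I, II, IV and V, by replicate 1 more than by replicate 2, while for complex III line 2 replicate 2 lay below line 3 replicate 1. Over all genes tested, too, both line 2 arrays (medians of 0.08 and 0.07) lay above the other 6. The line 2 medians of complexes I and III changed sign when arrays were centred on their median, to -0.01 and -0.05. The medians of complexes II and IV are those of line 2 replicate 1 at 0.26 and 0.20 and of replicate 2 at 0.13 and 0.10, each set against the mean of the ES arrays.

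**Figure D4:**
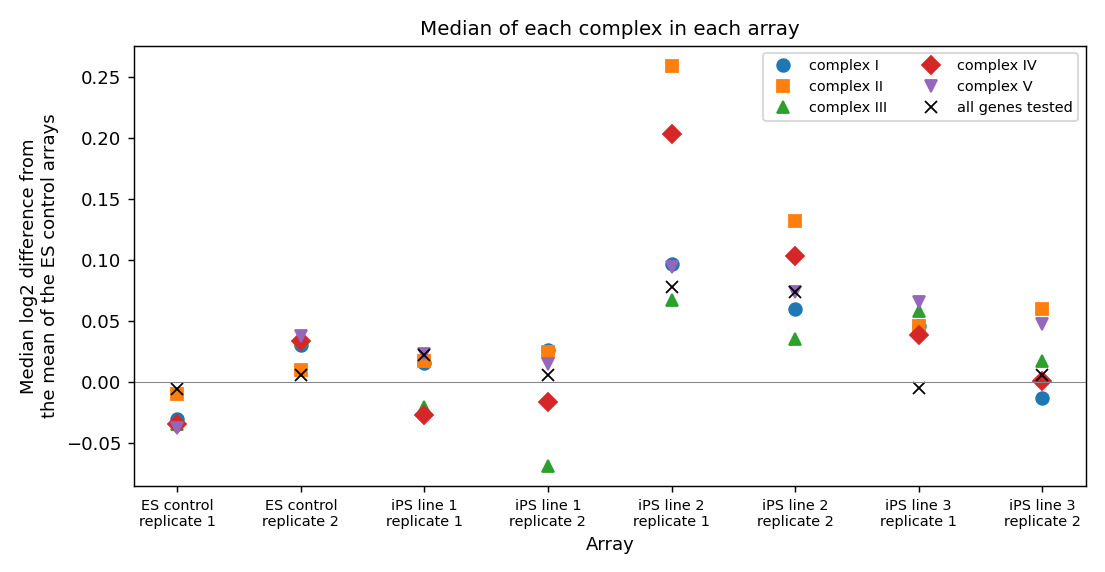
Median log2 difference of each complex from the mean of the ES control arrays (y axis) in each of the 8 arrays (x axis), with crosses for all 14009 genes tested. Complexes II and IV reach 0.26 and 0.20 in line 2 replicate 1, and all other arrays outside line 2 lie between -0.07 and 0.07.

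Between iPS lines, line 2 again stood apart. Against line 1, 19 members were higher in line 2 (13.8% of all genes) and 4 lower (9.54%), or 21.3% and 4.49% of the members. Against line 3, 16 were higher (19% of all genes) and 7 lower (12.1%), or 18% and 7.87% of the members. Lines 1 and 3 differed in Cox7a1 alone: 1 member was higher in line 1 (1.06% of all genes) and 0 were lower (0.35% of all genes), with 5 and 9 at an unadjusted p under 0.05 in limma. The count against line 1 became 12 without line 2 replicate 1 and 15 without line 1 replicate 2, that against line 3 became 14 without line 3 replicate 2, and the call between lines 1 and 3 was lost without either ES array, line 1 replicate 1 or line 3 replicate 2. These 3 comparisons share arrays with each other and with those against ES cells.

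Atp5md had -0.88 in line 2 against line 3. By their brightest probe set, the other members called between iPS lines but not against ES cells differed by at most 0.28 in size. Line 2 was above line 1 for Atp5j2 (0.28), Cox8a (0.23), Cox6a1 (0.22), Ndufs8 (0.22), Ndufc1 (0.19) and Atp5g2 (0.16), and above line 3 for Ndufc1 (0.21), Ndufb11 (0.20) and Atp5j2 (0.18). It was below line 3 for Ndufaf8 (-0.28) and Ndufa5 (-0.22). Ndufa5 was also lower in line 2 than in line 1 (-0.19). With each probe set tested, a second one of Ndufa5 gave -0.49 against line 3 and passed. It also passed in line 3 against ES cells (0.34), as did a second one of Ndufc1 in line 2 against ES cells (0.26). For Atp5j2 against line 3, the other probe sets gave -0.02 and 0.27 and did not pass. A dim second probe set of Atp5g2 passed in line 2 against line 1 (0.87) and against line 3 (0.79). Ndufs8 turned to -0.02 when its probe sets were averaged, and Atp5g2 lost its call with the replicate number as a block and on leaving out any array. The 5 members that kept their line 2 call against line 1 under each alternative were Cox7a1, Cox7a2l, Ndufa6, Ndufaf4 and Ndufv3. Against line 3 there were 10, those 5 with Atp5g1, Cox6b2, Ndufaf2, Ndufb1 and Sdhc.

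Over all 4 lines together, 22 members (24.7%) passed limma's F-test of any difference, where 30.7% of all genes did. By complex these were 11 of 42 in complex I, 2 of 4 in complex II, 0 of 9 in complex III, 4 of 17 in complex IV and 5 of 17 in complex V. Without line 2 replicate 1 the count was 13. In complex III, 1 gene had an unadjusted p under 0.05 in limma's F-test, Uqcrq, whose adjusted p was 0.119. Atp5mpl, a small proteolipid that copurifies with the synthase, passed the F-test alone (limma adjusted p = 0.03), with 5252 and 5678 in line 1 and 6126 to 7424 in the other 6 arrays, so that line 1 was lowest.

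Counting arrays alone, 8 members had all 6 iPS arrays above both ES arrays: Cyc1, Ndufa1, Ndufa10, Ndufb9, Ndufv1, Sdha, Sdhb and Uqcrfs1. Over all genes tested 7.15% had this pattern. The reverse held for Ndufb4 alone, where 5.74% of all genes had it. Ndufb4 entered the tests through its 2 ES arrays alone, with all 6 iPS arrays at or under the floor, so that it had to differ. In limma, 0 of the 8 passed in the mean of the 3 lines, and 3 had an unadjusted p under 0.05.

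Genes that work with the chain but fall outside the rule gave a frame for these values. Of the genes encoded in mitochondrial DNA, ND5 of complex I was the one measured, at 8971 and 8152 in ES cells and 9660 and 9541 in line 2, a difference of 0.17 that did not pass. Cytochrome c, the carrier between complexes III and IV, has a somatic gene, Cycs, with a line 2 difference of -0.04, and a testis gene, Cyct, which rose in line 2 (0.46) and in the mean of the lines (0.27). Of 37 other assembly factors, 6 rose and 4 fell in line 2, where 16.1% and 10.6% of all genes did, with a median of 0.00, against 0.07 over all genes tested. Timmdc1 (0.55), which assembles complex I, Bcs1l (0.49), which inserts the Rieske protein into complex III, and Sdhaf3 (0.47), for complex II, were among those that rose. Coa7 (-0.53), for complex IV, Uqcc3 (-0.46), for complex III, and Nubpl (0.44), for complex I, complete the 6 with the largest differences. In line 1, 0 of the 37 passed in limma (3 at an unadjusted p under 0.05), and in line 3 Ecsit alone rose (0.41).

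Regulators of mitochondrial gene expression moved in both directions in line 2. Of 17, 4 rose and 4 fell, where 16.1% and 10.6% of all genes did, with a median of -0.16, and in lines 1 and 3 none passed in limma (1 and 3 at an unadjusted p under 0.05). Ppargc1b, a coactivator that promotes mitochondrial biogenesis, read 412 and 338 in ES cells, 404 and 427 in line 1, 1004 and 1016 in line 2, and 473 and 450 in line 3. The line 2 arrays were over all others, with a difference from ES cells of 1.41. Gabpb1 (0.85), a partner of the ETS factor GABPA, and Esrra (0.81), the estrogen-related receptor that Ppargc1b coactivates, rose too, whereas Polg2 (-0.40), Pprc1 (-0.34) and Mterf4 (-0.31) fell. Nrf1, a transcription factor known for binding promoters of respiratory genes, read 1416 and 1321 in ES cells and 1346 and 1344 in line 2 and did not pass (-0.02).

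Of 12 genes by which oxygen supply adjusts respiration, 8 rose and 2 fell in line 2, where 16.1% and 10.6% of all genes did, with a median of 0.68, against 0.10 for the 89 members and 0.07 over all genes. The list was chosen with earlier results of these data known, so its counts and median describe the listed genes and are no test. In line 1, 3 of the 12 rose and 0 fell (1 at an unadjusted p under 0.05 in limma), and in line 3, 1 rose and 2 fell. Ndufa4l2, the oxygen-regulated relative of Ndufa4 that the rule leaves out, read 20.7 and 35.6 in ES cells, 69 and 66.1 in line 1, 260 and 237 in line 2, and 8.05 and 20.6 in line 3. The ES and line 3 arrays were all under the floor and line 2 was far above it. Ndufa4l2 thus entered the tests through lines 1 and 2 alone. Bnip3, a mitophagy receptor, rose by 2.74 in line 2 and by 0.69 in line 1, and fell in line 3 (-0.59), all past the threshold. Egln3 and Egln1, prolyl hydroxylases that sense oxygen, rose by 2.09 and 1.65 in line 2, and Pdk1, a kinase that restrains the entry of pyruvate into mitochondria, by 0.95. Higd1a, which binds complex IV, rose by 0.77, and the largest rise of a chain subunit that kept its call in every alternative was 0.67, for Cox7a1. Hif1a itself fell (-0.43), as did Iscu (-0.35), a scaffold for iron-sulfur clusters.

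**Figure D5:**
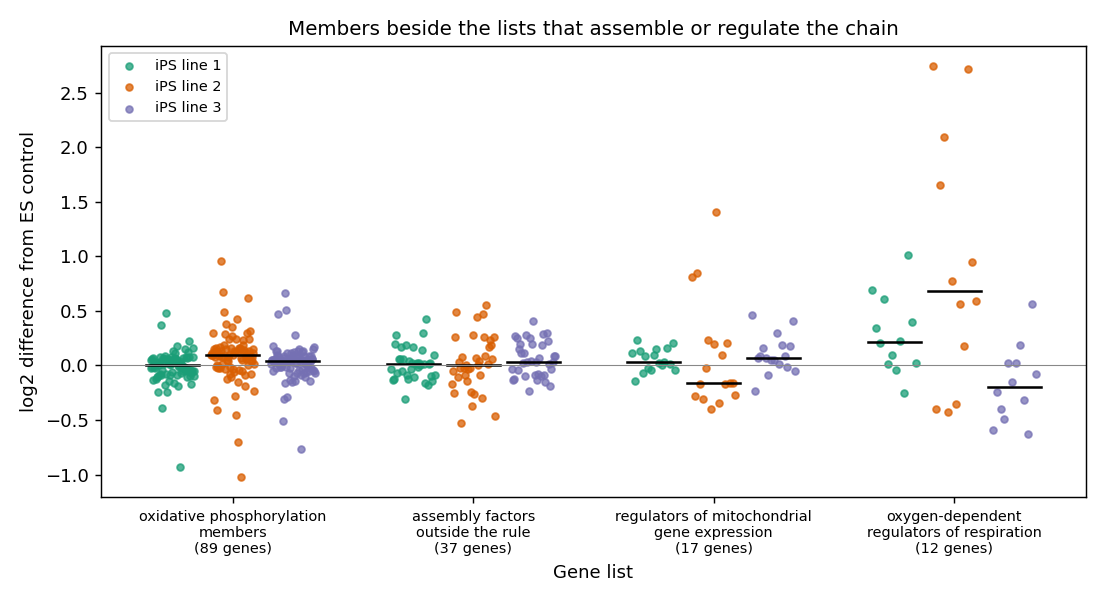
Log2 difference from ES control (y axis) of single genes (points) in each iPS line for the 89 members and 3 lists of genes that assemble or regulate the chain (x axis), with bars at the medians. The members stay close to 0 in all 3 lines, while the oxygen-dependent list reaches 2.74 in line 2 with a median of 0.68. Members and lists were chosen with earlier results of these data known.

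Promoter windows were matched for 74 of the 89 members, as RefSeq windows (build GRCm38.p6) from 250 bases before to 50 after a gene's start. The NRF1 letters CGCATGCGC, searched on both strands, occurred in 9 of these 74 (12.2%). Of all 27025 genes with such a window, 1.95% had them. These genes were not limited to those tested and were not matched to the members in expression. The YY1 letters AAGATGGCG occurred in 7 (9.46%, against 1.64%), the estrogen-related receptor letters TCAAGGTCA in 2 (2.7%, against 0.466%) and the GABPA letters CCGGAAGTG in 2 (2.7%, against 2.25%). A match is a description of letters and not a bound site. Shown are the 6 NRF1 windows in which the letters lie wholly before the gene's start, among them that of Ndufaf4. Each is written 5' to 3' on the gene's strand, and capitals mark the NRF1 letters, merged where the matches on both strands overlap.
Ndufaf4 (chr4:24897950-24897999, plus strand): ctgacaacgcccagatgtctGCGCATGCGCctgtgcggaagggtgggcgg
Atp5g2 (chr15:102671060-102671109, minus strand): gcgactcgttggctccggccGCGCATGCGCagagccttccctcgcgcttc
Atp5k (chr5:108434420-108434469, minus strand): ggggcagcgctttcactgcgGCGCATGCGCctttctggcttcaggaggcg
Atp5l (chr9:44920955-44920992, minus strand): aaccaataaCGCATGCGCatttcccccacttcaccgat
Cox6a1 (chr5:115349091-115349140, minus strand): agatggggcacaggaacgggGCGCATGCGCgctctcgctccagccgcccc
Ndufa8 (chr2:36049339-36049367, minus strand): cgcttgcgcgtcgctggagaCGCATGCGC

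In line 2 against ES cells, 1 of the 9 members with the NRF1 letters was called, Ndufaf4 at -0.45, where 26.7% of all genes were called. The other 8 had differences of 0.15 for Atp5g2, 0.12 for Atp5k, 0.00 for Atp5l, 0.13 for Cox6a1, -0.03 for Ndufa8, 0.24 for Ndufaf5, 0.04 for Uqcr11 and 0.04 for Uqcrc1. The line 2 values of these 9 members ran from -0.45 to 0.24, and the part of the letters in them was not tested.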

How the data were processed

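RNA of mouse pluripotent cells (4 lines, 2 arrays each) was measured on Affymetrix 3' arrays. RNA was extracted with Trizol and biotin-labelled, per the labels' protocols. Per the submitters' processing notes, MAS5 gave the deposited values, which are intensity signals on a linear scale with 1 value per probe set and array. Neither its version nor a scaling target or detection calls is given in the sources used. The 2% trimmed mean was 500 in all 8 arrays, so signals were used without further scaling. Depth has no meaning for arrays, and 2 arrays per line limit the precision.

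The platform annotation gave 1 symbol for 34958 of 45101 probe sets, several for 932 and none for 9160, with 64 control probe sets left out. Of the 89 members, 89 matched a RefSeq gene by entrez identifier and 0 had another symbol there. A probe set had to exceed 37.1, the 40th percentile of all signals, in at least 2 arrays. The brightest passing probe set stood for its gene. Of the 178 probe sets of members 171 passed, 49 members had several and 40 had 1. Signals entered as log2(signal + 12), where 12 is their 20th percentile. A group-means model over all 8 arrays was fitted in limma 3.58.1 (R 4.3.3; lmFit, eBayes with an intensity trend, 4 residual and 12.4 total degrees of freedom). Tests were two-sided over 7 contrasts and an F-test of the 4 lines, with Benjamini-Hochberg adjustment over 14009 genes in each test. Errors of log2 differences are standard errors.

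The fit was tested before use on simulated data in which 200 of 14009 genes changed in line 2. Of log2 changes of 0.25, 0.5, 1 and 2, 8%, 54%, 58% and 90% were called against ES control, with 3 false calls. Many more genes were called in line 2 in the data, so these shares do not carry over directly. Members and lists were chosen with earlier results of these data known. Named members are all those called in any of the 8 tests, the members with the highest and lowest signal of each complex, tissue isoforms, and members whose probe sets differ in sign for a called comparison. Of other lists, up to 6 called genes with the largest differences are named, and genes named beyond these were chosen after their values were seen. Alternatives covered the scaling, pseudocount, low-signal filter, probe set rule, variance trend, replicate number as a block, groups in the fit and each array left out. Promoter windows came from RefSeq (GRCm38.p6) and were searched for exact letters. No genome or protein sequence was used here.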

Additional observations from a re-analysis of the deposited data

Results flagged for a closer look

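For 29 members the difference from ES cells was not the same in all iPS lines, by limma's direct test of line 2 against another iPS line (log2 difference, adjusted p under 0.05). Taken singly, 25.8% of the members passed against line 1 and 25.8% against line 3, where 23.3% and 31.1% of all genes did. The share of all genes that passed in either comparison was not counted, so the 29 have no such share beside them. For each member the pair of lines with the larger difference is given, and 19 of the 29 were also called against ES cells in some line. Line 2 lay above line 3 for Cox7a1 (0.98), Cox6a2 (0.91), Ndufv3 (0.67), Cox6b2 (0.52), Ndufa6 (0.50), Sdhc (0.46), Ndufaf6 (0.36) and Ndufs7 (0.25), and below it for Ndufb1 (-0.79), Ndufaf2 (-0.56) and Atp5g1 (-0.36). Line 2 lay above line 1 for Cox7c (0.46), Cox7a2l (0.43), Ndufa13 (0.38), Ndufb8 (0.25), Atp5e (0.23), Ndufa7 (0.22) and Cox7a2 (0.17), and below it for Ndufaf4 (-0.52). Among the 10 called between lines only, line 2 lay above line 3 for Ndufc1 (0.21) and Ndufb11 (0.20) and below it for Atp5md (-0.88), Ndufaf8 (-0.28) and Ndufa5 (-0.22). It lay above line 1 for Atp5j2 (0.28), Cox8a (0.23), Cox6a1 (0.22), Ndufs8 (0.22) and Atp5g2 (0.16). The beta-actin 3'/5' ratios of 1.74 and 1.79 in line 2, against at most 1.62 elsewhere, move with line 2, while its Gapdh ratios of 0.915 and 0.946 overlapped those of the other arrays (0.856 to 0.935). The part of RNA integrity in these differences was not tested. With 2 arrays a line, no single array can be tested as standing apart from its group.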

How the results depend on the processing

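The variance trend, the scaling and single arrays moved the counts of called members. Without the variance trend, counts fell to 1 in the mean of the 3 lines, 0 in line 1, 7 in line 2 (4 higher, 3 lower) and 0 in line 3 against ES cells, 8 in line 2 against line 1, 12 in line 2 against line 3, 0 between lines 1 and 3, and 7 in the F-test. After quantile normalization they were 6 in the mean, 33 in line 2, 1 in line 3 and 0 between lines 1 and 3. Of all genes, 3.86% were then higher and 3.18% lower in the mean, 13.7% and 12.2% in line 2, and 1.53% and 2.13% in line 3. Between lines 1 and 3 these shares were 0.771% and 0.264%. With arrays centred on their median they were 0 in the mean, 0 in line 1, 10 in line 2, 1 in line 3, 12 in line 2 against line 1 and 0 between lines 1 and 3. Of all genes, 3.38% were then higher and 2.35% lower in the mean, 1.18% and 0.692% in line 1, and 11.1% and 13.1% in line 2. In line 3 these shares were 1.59% and 1.51%, in line 2 against line 1 they were 7.71% and 14.5%, and between lines 1 and 3 0.735% and 0.243%. A filter at the 60th percentile gave 5 in the mean, and leaving line 2 out gave 1. Testing each probe set gave 0 in line 1 and 0 between lines 1 and 3, and fitting only the groups compared gave 1 in line 3 and 0 between lines 1 and 3. The cause was not tested. For the settings other than the scalings, here and below, the counts stand without the share of all genes. A move of such a count is therefore not a result about the members.

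Leaving out 1 array at a time gave 0 to 5 called members in the mean, 0 to 1 in line 1, 11 to 22 in line 2, 0 to 2 in line 3, 12 to 21 in line 2 against line 1, 14 to 24 in line 2 against line 3, 0 to 1 between lines 1 and 3 and 13 to 21 in the F-test. A lone array was assumed to vary like the other groups.

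The median of complex I became 0.13 in line 2 after quantile normalization, 0.04 in line 1, -0.01 in line 2 and 0.08 in line 3 after centring, and 0.04 in line 2 with probe sets averaged. That of complex II became 0.26 in line 2 after quantile normalization, and 0.10 in both line 2 and line 3 after centring. That of complex III became -0.05 in line 2 and 0.10 in line 3 after centring, -0.01 in line 1 with probe sets averaged, and -0.01, 0.08 and 0.11 in lines 1, 2 and 3 without shared-sequence probe sets. That of complex IV became -0.02 in line 3 after quantile normalization, and 0.06 in line 2 and 0.07 in line 3 after centring. That of complex V became 0.06 in line 2 and 0.01 in line 3 after quantile normalization, 0.03, 0.01 and 0.10 in lines 1, 2 and 3 after centring, and in line 2 0.07 with probe sets averaged and 0.04 without shared-sequence probe sets.

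Leaving out 1 array at a time, the medians of lines 1, 2 and 3 ranged from -0.01 to 0.04, 0.06 to 0.11 and -0.01 to 0.06 in complex I, and in complex II from 0.13 to 0.26 in line 2. In complex III they ranged from -0.09 to 0.00, 0.01 to 0.07 and 0.00 to 0.08, in complex IV from -0.05 to 0.01, 0.10 to 0.20 and -0.02 to 0.05, and in complex V from -0.03 to 0.02, 0.06 to 0.13 and 0.01 to 0.09.

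Among named members, Ndufb8 (-0.15 in line 2 against ES cells), Ndufs8 (-0.02 in line 2 against line 1) and Uqcrq (0.15 in line 2 against ES cells) reversed with probe sets averaged, and Uqcrq (0.46) without shared-sequence probe sets. Of the 33 members called in any of the 8 tests, 32 were followed in 1 comparison each (against ES cells where called there), and Atp5mpl passed the F-test alone. In that comparison 5 kept their call in each alternative but the test of single probe sets, which was not followed by member, and 22 lost it on leaving out at least 1 array. Counting any pair of lines, 10 members kept a call, with Atp5g1, Cox6b2, Ndufa6, Ndufaf2 and Sdhc added by pairs of iPS lines.

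Same-numbered arrays did not deviate together (r from -0.0135 to 0.0282 over 6 pairs of lines, 0 of them over 0.1), so they share only a number. With the replicate block, the counts were 4 in the mean, 1 in line 1, 22 in line 2 and 2 in line 3, then 21, 24 and 1 between lines 2 and 1, 2 and 3, and 1 and 3, and 21 in the F-test, and of the named calls only that of Atp5g2 was lost. With 2 arrays a line, small differences of single subunits can be missed.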
